A study of Mus musculus with 12 samples.

Results

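The genes described here build the apical domain and close the cell contacts of the mouse embryo at the 8-cell stage. They are 10 genes, chosen by name for these roles: Prkcz, Prkci, Prkcd, Pard3, Pard6a, Pard6b, Ezr, Cdh1, Ctnnb1 and Rhoa, of 55401 genes listed in the count tables. All 10 were found, each under 1 gene identifier. The 12 RNA-seq libraries were made from 8-cell embryos that had been injected as zygotes with small interfering RNA (siRNA), short double-stranded RNA that triggers degradation of a matching mRNA. The zygotes came from superovulated B6129F1 females mated with B6CBAF1 males, and 8-cell embryos were pooled, 10 in each library. Every group, control included, also received H2B-EGFP mRNA at 150 ng/µl as a marker of injection. The control group (n = 2) received a non-targeting siRNA at 15 µM, the Nr5a2 KD group (n = 3) an Nr5a2 siRNA at 5 µM and the Klf5 KD group (n = 3) a Klf5 siRNA at 10 µM. The dKD group (n = 4) received both siRNAs, at concentrations the labels do not give separately. The siRNA dose therefore differed between control and the single knockdowns, and the injected zygote's own stored mRNA and protein were still present at the start. In pools of whole embryos, fewer cells carrying a transcript and less of it in each cell cannot be told apart.

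At the 8-cell stage, blastomeres flatten against each other, a step called compaction, and each forms a cap of apical membrane facing outwards. Adhesion rests on E-cadherin (Cdh1), whose cytoplasmic tail binds β-catenin (Ctnnb1). The apical cap holds the Par complex, in which the scaffolds Par3 (Pard3) and Par6 (Pard6a, Pard6b) position an atypical protein kinase C encoded by Prkcz or Prkci. Ezrin (Ezr) ties the apical membrane to the actin cortex, and the small GTPase RhoA (Rhoa) drives the actomyosin tension that helps to start both processes. Cells that keep the cap go on to the outer lineage, the trophectoderm. NR5A2 is a nuclear receptor and KLF5 a zinc finger factor, both active in these early embryos.

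Each library held between 6676683 and 12560926 counts over genes, with a median of 7598177. Levels are given as CPM, a gene's counts scaled to a library of 1000000 counts, with library sizes scaled by the TMM method across all libraries. In the groups that received Nr5a2 siRNA, Nr5a2 itself was at 24.1 to 38.9 CPM, against 210 and 225 CPM in control. Klf5 was at 72.9 to 144 CPM in Klf5 KD and at 444 and 467 CPM in control. The fit over all genes did not call it in Klf5 KD (adjusted p = 0.0996, edgeR), whereas DESeq2 called it lower (log2 change -2.03, adjusted p = 6.62e-07). Klf5 was also called lower in Nr5a2 KD, at 109 to 159 CPM (log2 change -1.68 ± 0.225 SE, adjusted p = 0.0013, edgeR), a range that overlaps with that of Klf5 KD, and was at 40.03 to 82.2 CPM in dKD. The Nr5a2 KD embryos thus had less of both transcripts. Of 8 embryo markers, each had counts in at least 1 library, although Cdx2 was at 0 in every dKD library. Their summed level was 18180 to 32330 CPM, most of it Dppa3 (group means of 15810 to 25350 CPM). Markers of cumulus cells (9 genes) summed to at most 3.30 CPM and those of sperm (4 genes) to at most 2.82 CPM. Stromal markers (5 genes, with Col1a2 and Dcn at 0 throughout) summed to 5.50 to 7.27 CPM in control, to 10.9 to 18.5 CPM in Nr5a2 KD, all above control, to 1.03 to 3.78 CPM in Klf5 KD, all below it, and to 4.4 to 12.7 CPM in dKD. Most of these sums was Pdgfra alone, with means of 6.16 CPM in control, 15.3 in Nr5a2 KD, 2.04 in Klf5 KD and 7.59 in dKD. Col1a1 had a mean of at most 0.501 CPM in any group. Blood markers (4 genes, with Ptprc and Hbb-bt at 0 in all libraries) summed to 3.22 to 6.74 CPM in control, 6.48 to 17.2 CPM in Nr5a2 KD, 5.20 to 8.66 CPM in Klf5 KD and 9.03 to 26.9 CPM in dKD. The part of these markers in the results was not tested. The mitochondrial share of counts was 12.9% and 13.2% in control but 4.41% to 12.8% in the knockdown libraries, and its part in the results was not tested beyond the values given beside them.

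Transcripts of the 10 genes differed widely in abundance. Per kilobase of exon, Rhoa led in control at 36.4 ± 4.55 CPM per kb (SD, n = 2). Prkcz followed at 9.86 ± 0.778 and Ctnnb1 at 9.47 ± 0.0481 CPM per kb, and the ranges of these neighbours overlapped. Cdh1 (7.84 ± 0.63) and Prkcd (7.50 ± 0.263) came next in CPM per kb and overlapped as well. The other members were scarce, from Pard6a at 2.41 ± 0.557 through Prkci (1.43 ± 0.675), Pard6b (1.04 ± 0.207) and Pard3 (0.425 ± 0.14) to Ezr at 0.248 ± 0.236 CPM per kb. In dKD the order changed, with Ctnnb1 at place 2 with 12.2 ± 2.5 CPM per kb and Prkcz at place 5 with 3.18 ± 1.23 CPM per kb (n = 4). The plot of the levels by library shows all 10 genes in the 12 libraries.

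**Figure D1:**
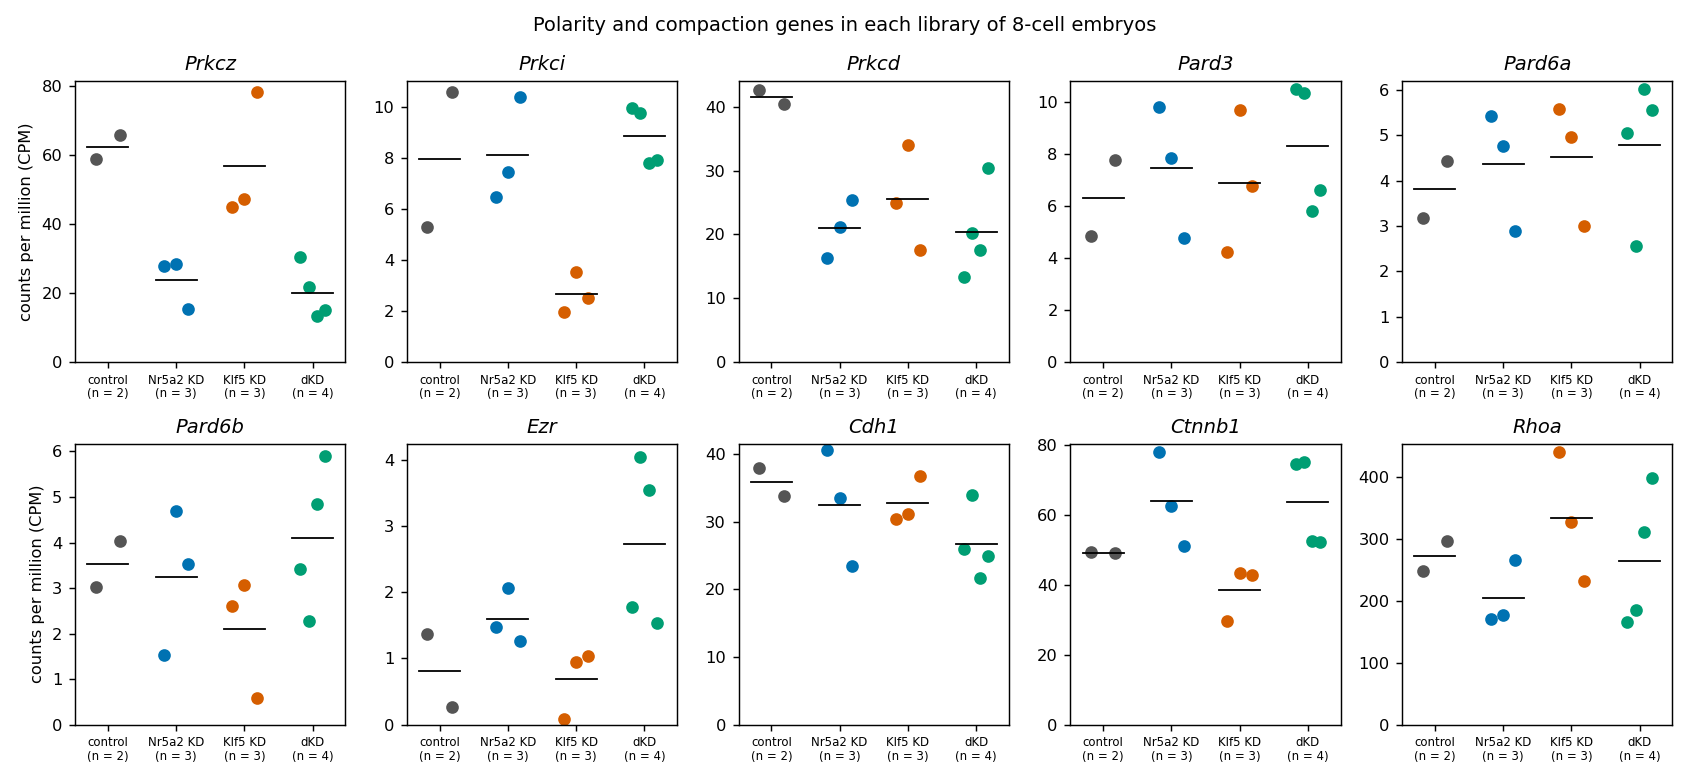
Level of each gene (CPM, linear axis from 0) in every library, by group, with points for libraries and horizontal lines for group means. Prkcz lies at 58.8 and 65.8 CPM in control and at most at 30.4 CPM in every Nr5a2 KD and dKD library, while Prkci is lowest in the Klf5 KD libraries at 1.98 to 3.54 CPM.

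The first question was whether depletion of either factor changed the transcripts of the apical kinases. A gene was called when its adjusted p was under 0.05 and its fitted change at least 2-fold (edgeR quasi-likelihood test, Benjamini-Hochberg adjustment over all genes tested). Fitted changes are on the log2 scale with their standard error (SE). In Nr5a2 KD, 1 of the 10 members was called lower and 0 higher, against 4.42% and 3.45% of all 13262 genes tested. In dKD, 1 of 10 was called lower and 0 higher, against 3.85% and 3.38% of 13724 genes. The balance over all genes depended on the library sizes. It was 586 lower and 457 higher in Nr5a2 KD and 529 and 464 in dKD, but 90 (0.679%) and 761 (5.74%) in Nr5a2 KD and 178 (1.3%) and 2838 (20.7%) in dKD with sizes from the ERCC spike-ins. With total counts it was 453 and 504 in Nr5a2 KD and 418 and 650 in dKD. In Klf5 KD, 0 of the 9 members tested and 0% of 12838 genes were called by edgeR, with 2 members (Prkci and Prkcd) and 1088 genes at an unadjusted p under 0.05, and DESeq2 called 0 members and 50 genes. The median log2 fold change of the members was -0.02 in Nr5a2 KD, -0.14 in Klf5 KD and 0.23 in dKD, beside medians of 0.04, 0.00461 and 0.05 over all genes tested. All of these comparisons share the same 2 control libraries. Where every library of a group lay on one side of both, as given below, the share of all genes doing so was not counted.

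Prkcz, which encodes the zeta isoform of atypical protein kinase C, was the called gene in both. It is annotated on the minus strand of chromosome 4 (GRCm38, chr4:155260129-155361361), with 6318 exon bases and none shared with another gene. Its deposited value was nevertheless not a whole number in 5 libraries, and the reason was not examined. The sequences below are the outermost annotated Prkcz start and the Prkci start, 250 bases before to 50 bases after, from RefSeq (GRCm38.p6), since these paralogues were called in opposite directions between dKD and Klf5 KD. Prkcz is shown for chr4:155361379-155361678, minus strand, and Prkci for chr3:30995521-30995820, plus strand, both 5′ to 3′. Capitals mark the GC box letters GGGCGG on either strand, which can share bases with a KLF-type match.
Prkcz: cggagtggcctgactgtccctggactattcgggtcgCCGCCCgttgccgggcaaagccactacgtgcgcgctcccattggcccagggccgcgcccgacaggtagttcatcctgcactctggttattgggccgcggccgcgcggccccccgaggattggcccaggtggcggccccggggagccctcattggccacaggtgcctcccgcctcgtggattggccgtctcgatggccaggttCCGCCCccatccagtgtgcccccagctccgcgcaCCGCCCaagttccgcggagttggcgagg
Prkci: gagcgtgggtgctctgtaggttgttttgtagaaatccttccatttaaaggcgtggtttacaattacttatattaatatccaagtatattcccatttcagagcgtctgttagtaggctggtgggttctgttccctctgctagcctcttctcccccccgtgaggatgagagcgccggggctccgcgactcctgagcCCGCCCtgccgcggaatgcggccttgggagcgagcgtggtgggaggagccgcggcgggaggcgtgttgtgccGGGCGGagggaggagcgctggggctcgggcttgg
The Prkcz window held 3 GC boxes and 71% G or C, and the Prkci window 2 and 59.7%. RefSeq windows were found for 9 members, 16 windows in all, of which 12 held a GC box, compared with 35.7% of 32851 promoter windows of the same length. The NR5A-type letters CAAGGNCA, searched on both strands, were in 0 of the 16 windows and in 6.71% of all windows. The KLF-type letters GGGNGTGG, also on both strands, were in 3 of the 16 (1 each for Pard3, Pard6b and Ctnnb1) and in 17.6% of all. Some members had more than 1 window, and those of Ctnnb1 overlap, so the windows are not independent. The windows compared with were not matched for G and C content, and no enrichment was tested. These are letter matches in short windows, and binding was not measured in these libraries.

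In control, Prkcz was at 58.8 and 65.8 CPM. In Nr5a2 KD it was at 27.9, 28.2 and 15.5 CPM, and in dKD at 30.4, 21.8, 13.2 and 15.0 CPM. All 7 of these libraries lay below both controls. The mean fell to 38.3% of control in Nr5a2 KD (log2 change -1.36 ± 0.277 SE, adjusted p = 0.011, edgeR) and to 32.3% in dKD (log2 change -1.60 ± 0.303 SE, adjusted p = 0.00951, edgeR). In Klf5 KD it was at 44.8, 47.3 and 78.2 CPM, a range that spans both controls (log2 change -0.14 ± 0.306 SE, adjusted p = 0.933, edgeR). The dKD libraries were also lower than those of Klf5 KD (log2 change -1.48 ± 0.319 SE, adjusted p = 0.00893, edgeR), but overlapped with Nr5a2 KD (adjusted p = 0.999, edgeR). The calls against control rested on both control libraries. Without control replicate 1 or 2 the adjusted p was 0.0672 or 0.11 in Nr5a2 KD and 0.0736 or 0.104 in dKD, with log2 fold changes from -1.28 to -1.68.

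The lowest Prkcz levels were in libraries with a low mitochondrial share, 15.5 CPM in Nr5a2 KD replicate 3 (6.18%) and 13.2 and 15.0 CPM in dKD replicates 3 and 4 (6.75% and 6.17%). The remaining Nr5a2 KD and dKD libraries, with shares of 10.4% to 12.8%, were at 21.8 to 30.4 CPM, also below both controls. With this share as a covariate, the Nr5a2 KD change was -0.95 on the log2 scale and not called (adjusted p = 0.0672, edgeR), whereas the dKD call was kept. Library sizes set from the ERCC spike-in counts raised the median of all genes to 0.82 in Nr5a2 KD and 0.84 in dKD on the log2 scale. Relative to that median, Prkcz changed by -1.49 and -1.70 log2 units, but its own change was -0.67 (adjusted p = 0.284) and -0.86 (adjusted p = 0.072, edgeR), and neither was called.

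Prkci, which encodes the iota/lambda isoform of atypical protein kinase C and lies on the plus strand of chromosome 3 (chr3:30995747-31052959), showed another pattern. It was at 5.30 and 10.6 CPM in control, at 6.49, 7.44 and 10.4 CPM in Nr5a2 KD and at 9.99, 9.78, 7.80 and 7.91 CPM in dKD. In Klf5 KD it was at 1.98, 3.54 and 2.50 CPM, from 17 to 30 counts a library. The 3 Klf5 KD libraries were the lowest of all 12, a pattern not counted over all genes. The mean there was 33.6% of control, but the fit did not call it (log2 change -1.58 ± 0.485 SE, unadjusted p = 0.00648, adjusted p = 0.484, edgeR). Between dKD and Klf5 KD, which does not involve the controls, Prkci was called higher in dKD (log2 change 1.74 ± 0.365 SE, adjusted p = 0.00802, edgeR). In that comparison 1 of 10 members was called lower (Prkcz) and 1 higher (Prkci), against 5.41% and 5.38% of 12904 genes. Both calls held when each library was left out in turn, with an adjusted p of at most 0.0336 for Prkcz and 0.029 for Prkci.

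**Figure D2:**
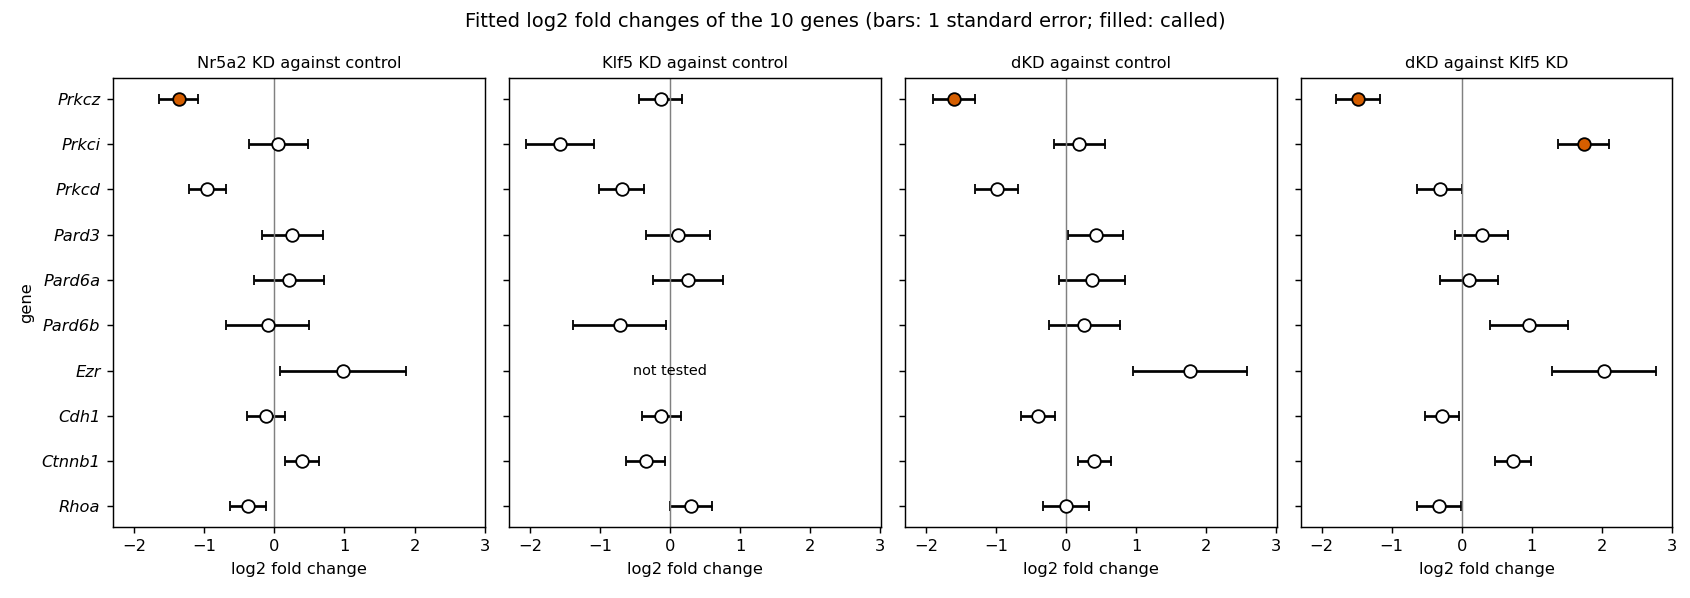
Fitted log2 fold change (x axis) of each gene in 4 comparisons, with bars for 1 standard error and filled points for called genes. Prkcz is called lower in 3 of the comparisons shown and Prkci higher in dKD against Klf5 KD, while the members Pard3, Pard6a, Pard6b, Cdh1 and Rhoa are called in none.

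The question of whether the Klf5 siRNA acted differently in the presence of the Nr5a2 siRNA was put to an interaction fit over all 12 libraries. No member passed, nor did any of 14830 genes (0%), of which 715 had an unadjusted p under 0.05. Prkci had the smallest unadjusted p of the members, 0.00485 (interaction 1.70 log2 units, SE 0.525, adjusted p = 0.95, edgeR). Between dKD and Nr5a2 KD, 0 of 10 members and 0% of 13017 genes were called, with 447 genes at an unadjusted p under 0.05 and the smallest member p at 0.174 (Ezr). DESeq2 called 0 members in both, with 3 genes for the interaction and 4 genes between dKD and Nr5a2 KD.

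These kinases overlap in function, so their summed level and the share of Prkcz were followed, both per kilobase. The sum was 11.3 ± 1.45 CPM per kb in control (SD, n = 2), 5.24 ± 0.801 in Nr5a2 KD (n = 3), 9.46 ± 2.93 in Klf5 KD (n = 3) and 4.78 ± 1.43 in dKD (n = 4). The highest sum in the groups with Nr5a2 siRNA, 6.61, lay below the lowest in control, 10.3 CPM per kb. As Prkcz supplied most of the sum in control, this mostly repeats the Prkcz levels above and is not separate support. Prkcz made up 90.7% and 84.5% of the pair in control. It made up 79.1%, 76.9% and 56.6% in Nr5a2 KD, 95.2%, 92.1% and 96.5% in Klf5 KD, and 72.8%, 66.1%, 59.9% and 62.5% in dKD. All libraries with Nr5a2 siRNA were below both controls and all with Klf5 siRNA alone above them. Exact two-sided permutation tests gave p = 0.2 for Nr5a2 KD, 0.2 for Klf5 KD and 0.133 for dKD. These are the smallest values this test can give with these group sizes, so it could not go under 0.05.

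**Figure D3:**
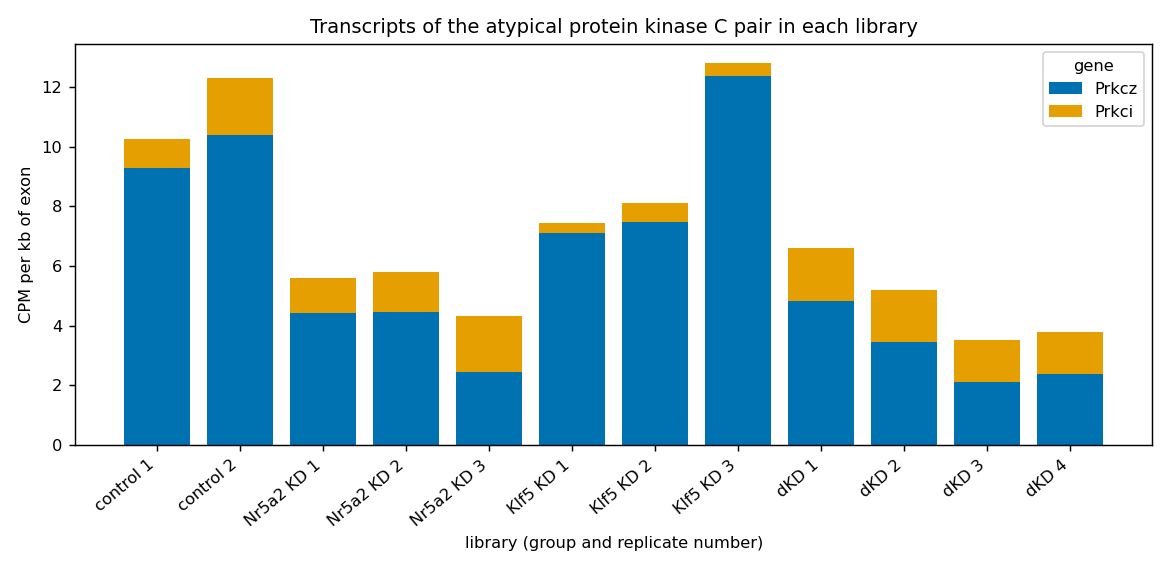
Stacked levels of Prkcz and Prkci (CPM per kb of exon, linear axis from 0) in each of the 12 libraries. The stacks of the Nr5a2 KD and dKD libraries reach 3.50 to 6.61, below the controls at 10.3 and 12.3, and the Prkci part is thinnest in Klf5 KD.

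Prkcd encodes protein kinase C delta, which responds to diacylglycerol, and is annotated at chr14:30595354-30626210, minus strand. It was at 42.6 and 40.5 CPM in control, and every knockdown library was lower, a separation not counted over all genes. The levels were 16.3, 21.2 and 25.4 CPM in Nr5a2 KD, 24.9, 34.0 and 17.6 CPM in Klf5 KD and 13.3, 20.3, 17.5 and 30.4 CPM in dKD. In Nr5a2 KD the fitted log2 change was -0.96 (SE 0.268, adjusted p = 0.0453, edgeR), past the p threshold and short of 2-fold, where 5.32% of genes passed as lower without a fold minimum. In dKD it was -0.99 (SE 0.304, adjusted p = 0.0688, edgeR) and in Klf5 KD -0.69 (SE 0.319, adjusted p = 0.586, edgeR). The ranges of dKD and Nr5a2 KD overlapped (adjusted p = 0.999, edgeR). Prkcd was called lower in dKD by DESeq2 (adjusted p = 0.0334), without dKD replicate 4 (-1.25, adjusted p = 0.0293) and once the mitochondrial share entered the fit (-1.34, adjusted p = 0.025). With that covariate, Prkcd took the place of Prkcz as the called member in Nr5a2 KD (-1.17, adjusted p = 0.0498, edgeR), and it was also called there without Nr5a2 KD replicate 3 (-1.12, adjusted p = 0.0136, edgeR). With ERCC library sizes its change was -0.13 in Nr5a2 KD and -0.14 in dKD, still -0.94 and -0.98 relative to the median gene.

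The scaffolds of the Par complex were scarce in every group. Pard3 (chr8:127063893-127612286) was at 4.85 and 7.78 CPM in control and between 4.23 and 10.5 CPM in the knockdowns. Pard6a (chr8:105701148-105703496) was at 3.18 and 4.43 CPM in control and between 2.55 and 6.02 CPM in the knockdowns. Pard6b (chr2:168081004-168101203), the Par6 form required for blastocyst formation in the mouse, was at 3.03 and 4.03 CPM in control and between 0.587 and 5.90 CPM in the knockdowns. For each of these 3 genes the knockdown ranges spanned both controls, and the adjusted p was 0.559 or more in each comparison against control. The lowest Pard6b value was 4 counts, in Klf5 KD replicate 3, whereas that group's other libraries were at 2.61 and 3.07 CPM. Pard6b made up 30.7% and 29.7% of the Par6 pair per kilobase in control, and 17.9%, 22.4% and 8.33% in Klf5 KD. Only in Klf5 KD was every library below both controls (exact permutation p = 0.2, the smallest this test can give with these group sizes). The share was 11.6% to 36.2% in Nr5a2 KD (exact permutation p = 1) and 23.9% to 33.1% in dKD (exact permutation p = 0.533).

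Ezr, the ezrin gene at chr17:6738041-6782784, was near the detection limit. It had 9 and 2 counts in control, 12.5, 15 and 10 in Nr5a2 KD, 1, 8 and 7 in Klf5 KD and 14, 28.5, 30 and 13 in dKD. The 4 dKD libraries, at 1.54 to 4.04 CPM, were above both controls at 1.36 and 0.268 CPM. The change in dKD was not called (log2 change 1.77 ± 0.808 SE, adjusted p = 0.2, edgeR), nor that in Nr5a2 KD (log2 change 0.98 ± 0.899 SE, adjusted p = 0.559, edgeR). Against Klf5 KD, the dKD libraries were all higher (log2 change 2.02 ± 0.741 SE, adjusted p = 0.0946, edgeR). Ezr passed the count filter in each of these comparisons only through the group in which it was higher, so these values could point only one way, and it did not pass the filter in Klf5 KD against control. Blood markers, nearly all from Hba-a1, were higher in dKD than in control as well, and their part in the Ezr values was not tested.

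Among the adhesion genes, Cdh1 (chr8:106603351-106670246) kept to a narrow range. It was at 37.9 and 33.8 CPM in control, at 40.6, 33.5 and 23.5 CPM in Nr5a2 KD, at 30.3, 31.2 and 36.7 CPM in Klf5 KD and at 25.9, 33.9, 21.7 and 24.9 CPM in dKD. Only dKD replicate 2 among the dKD libraries reached the lower control (log2 change -0.39 ± 0.242 SE, adjusted p = 0.347, edgeR).

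Ctnnb1 (chr9:120929216-120960507) shares 15.1% of its exon bases with the annotated genes Ulk4 and Mir7090. It was at 49.3 and 49.0 CPM in control, at 77.8, 62.4 and 51.1 CPM in Nr5a2 KD and at 74.4, 75.2, 52.3 and 52.3 CPM in dKD, all above both controls. In Klf5 KD it was at 29.5, 43.4 and 42.7 CPM, all below them. None of these differences was called. The control libraries lay close together (SD 0.25 CPM), and how many of all genes separate in this way was not counted. The fitted log2 change was 0.40 in Nr5a2 KD (SE 0.242, adjusted p = 0.352, edgeR), -0.35 in Klf5 KD (SE 0.283, adjusted p = 0.746, edgeR) and 0.40 in dKD (SE 0.237, adjusted p = 0.323, edgeR). Between dKD and Klf5 KD it was 0.73 (SE 0.254, adjusted p = 0.0788, edgeR).

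Rhoa (chr9:108306129-108337934) was the most abundant member per kilobase in control and varied widely among libraries of one group. It was at 249 and 297 CPM in control, at 171, 177 and 266 CPM in Nr5a2 KD, at 440, 328 and 231 CPM in Klf5 KD and at 166, 185, 311 and 398 CPM in dKD. The fitted log2 change was -0.38 in Nr5a2 KD (SE 0.256, adjusted p = 0.403, edgeR) and 0.30 in Klf5 KD (SE 0.304, adjusted p = 0.813, edgeR), and the dKD mean was 97.1% of control. Among the knockdown libraries, the spread went with the mitochondrial share. The 5 knockdown libraries with a share of 8.28% or less were at 266 to 440 CPM, and the 5 with a share of 10.4% or more at 166 to 231 CPM, without overlap. Both controls, at 12.9% and 13.2%, were above the latter range. Of the 10 members, only Rhoa had ranges without overlap between these sets. Actb, not a member, also separated, at 169 to 435 against 85.4 to 138 CPM. How many of all genes do so was not counted, so the separation cannot be called particular to Rhoa. With the mitochondrial share in the fit, the Rhoa change in Klf5 KD was -0.41, of opposite sign. In Nr5a2 KD the sign for Rhoa turned with ERCC library sizes (0.49), and neither was called.

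**Figure D4:**
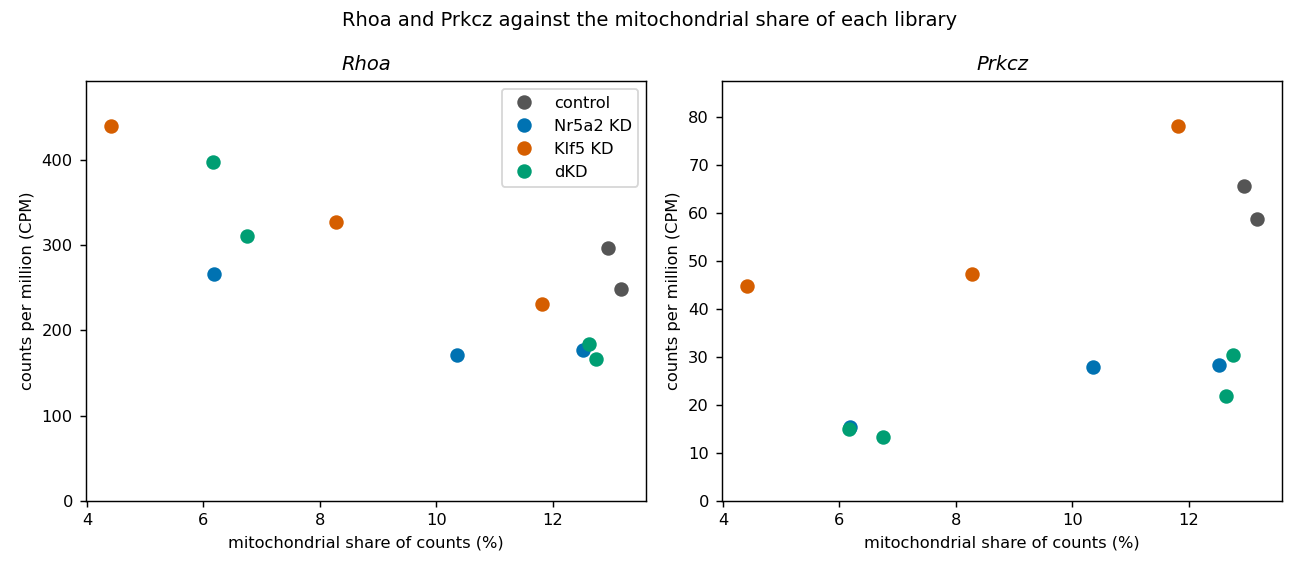
Level of Rhoa (left) and Prkcz (right) in CPM against the mitochondrial share of counts (%), with 1 point per library coloured by group. Rhoa is at 266 to 440 CPM in the 5 knockdown libraries with the lowest shares, whereas Prkcz is below both controls in the Nr5a2 KD and dKD libraries at low and at high shares.

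Other genes of polarity, adhesion and the cortex were counted from lists of 52 genes in 8 groups. In Nr5a2 KD, 43 were tested, of which 2 were called lower and 1 higher, beside the 4.42% and 3.45% of all genes. DESeq2 called 5 of them (Ect2, Tead4, Podxl, Tfap2c and Vcl) and 1225 genes in all. In dKD 0 of 43 were called by edgeR in either direction, with 11 at an unadjusted p under 0.05, where 25.01% of all genes were under it, and 1 called by DESeq2 (Podxl), which called 1352 genes in all. In Klf5 KD 0 of 40 were called, with 1 at an unadjusted p under 0.05 and 0 called by DESeq2. The genes called lower in Nr5a2 KD were Ect2, the RhoA exchange factor of cytokinesis, and Tead4, the TEAD factor of the trophectoderm programme. Ect2 went from 130 and 125 CPM in control to 51.4, 76.7 and 52.1 CPM in Nr5a2 KD (log2 change -1.06 ± 0.242 SE, adjusted p = 0.0187, edgeR) and 47.0 to 98.0 CPM in dKD (log2 change -0.74, adjusted p = 0.109, edgeR). Tead4 was at 101 and 95.7 CPM in control and 38.9, 66.9 and 37.9 CPM in Nr5a2 KD (log2 change -1.01, adjusted p = 0.0393, edgeR). In dKD it was at 48.8 to 63.8 CPM (log2 change -0.77, adjusted p = 0.0426, edgeR), which passed the p threshold and not the fold. Tfap2c, which acts with Tead4 and active RhoA to induce the apical domain, was at 64.9 and 59.3 CPM in control and 26.5 to 37.1 CPM in Nr5a2 KD (log2 change -0.99, adjusted p = 0.0246, edgeR), short of 2-fold. Of 12 other settings, 7 kept the Nr5a2 KD call on Ect2 and 7 that on Tead4. The calls on Ect2 and Tead4 were both lost with total counts (-0.95 and -0.90), with ERCC sizes (-0.33 and -0.31) and with the mitochondrial covariate (-0.84 and -0.67, all log2 changes), and also without control replicate 1 or 2 or Nr5a2 KD replicate 1 or 3 (log2 changes of -1.09 to -0.86).

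Podxl, which encodes the apical sialomucin podocalyxin, was the gene called higher in Nr5a2 KD, where it passed the count filter only through the Nr5a2 KD libraries. It had 9 and 0 counts in control, 47, 49 and 43 in Nr5a2 KD, 23, 62, 26 and 27 in dKD and 0 in all 3 Klf5 KD libraries. The fitted log2 change was 3.16 in Nr5a2 KD (SE 0.866, adjusted p = 0.0416, edgeR), against a control of 9 counts in all. It was 2.13 without control replicate 2 (adjusted p = 0.152, edgeR), and the call was also lost without Nr5a2 KD replicate 1 (adjusted p = 0.0783) or 2 (adjusted p = 0.087, edgeR). Of 11 other settings, 7 kept the Nr5a2 KD call on Podxl. In dKD its log2 change was 2.76 (adjusted p = 0.102, edgeR). Against Klf5 KD, dKD was at least 12.7-fold higher, with Klf5 KD set to a floor of 3 counts per library. In that comparison 3 of the 43 listed genes tested were called higher and 0 lower, beside 5.38% and 5.41% of all genes. Of these 3, Podxl and Jup passed the count filter only through the dKD libraries, so they could be called only as higher. Besides Podxl they were Jup, which encodes plakoglobin (1.06 to 1.32 CPM in Klf5 KD, 2.78 to 6.10 CPM in dKD, log2 change 1.89), and Vcl, which encodes vinculin (5.13 to 7.05 and 10.4 to 18.01 CPM, log2 change 1.22, adjusted p = 0.0251, edgeR). Both calls were lost without Klf5 KD replicate 1 or 2 or dKD replicate 2, and that on Vcl also without dKD replicate 1, with adjusted p up to 0.0755.

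No gene of the remaining lists was called against control by edgeR, whereas DESeq2 called Vcl higher in Nr5a2 KD (log2 change 1.01, adjusted p = 0.0413, beside 0.0601 by edgeR). For the Par partners, the control level of Cdc42 was 776 ± 39.1 CPM (SD, n = 2) and the dKD level 602 ± 31.9 CPM (n = 4), a log2 change of -0.33 (adjusted p = 0.279, edgeR), whereas Pard3b and Pard6g, with at most 5 counts in a library, were not tested. In the Crumbs complex (4 of 4 tested) the smallest p in dKD belonged to Crb3 (-0.67, adjusted p = 0.113) and Mpp5 (0.91, adjusted p = 0.183, edgeR). Among 7 basolateral polarity genes they were Stk11 (-0.28, adjusted p = 0.534) and Mark3 (0.19, adjusted p = 0.655, edgeR). Of 10 adherens junction genes, 8 were tested, with Cdh3 at -0.96 (adjusted p = 0.143) and Afdn at -0.57 (adjusted p = 0.171, edgeR). Of the 6 other protein kinase C genes, 3 were tested in dKD, with Prkce at -0.91 (adjusted p = 0.261, edgeR). All values in parentheses or after a gene name here are log2 fold changes in dKD against control.

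Genes with the closest pattern to the called members were ranked by the root mean square difference of centred log2 CPM over the 12 libraries, among 14830 genes. For Prkcz they were Arl3 (0.19), Cpeb3 (0.214) and Prkacb (0.238), where Prkcz itself varied by 0.828 about its mean and the median gene differed from it by 0.985. For Prkci they were Anpep (0.257), Txlna (0.298) and Shld2 (0.313), with 0.749 for Prkci itself and 0.917 for the median gene.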

How the data were processed

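Total polyA RNA from pools of 10 embryos was made into SMART-seq libraries by the authors and sequenced as paired ends. The authors trimmed reads (Trim Galore 0.6.2), aligned them with STAR to GRCm38 (Ensembl release 102) extended by ERCC and H2B-EGFP sequences, and counted exon overlaps per gene with featureCounts 2.0.1, without strand and with a read over several genes split in fractions. The deposited values are therefore estimated counts that need not be whole. The deposited values were rounded for the tests. Reads from overlapping or antisense genes cannot be told apart without strand.

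Genes were kept by filterByExpr (minimum count 10, minimum total 15), scaled by TMM and tested with edgeR 4.0.16 (R 4.3.3) in the 2 groups of each comparison, with spike-in rows left out. CPM are TMM-scaled over 12 libraries, divided by the exon length per kilobase where genes are compared. The alternatives were DESeq2 1.42.0, other library sizes and filters, a mitochondrial covariate, a replicate block, a fit of all 12 libraries and each library left out. The fit was tested on simulated data. Shares were compared by exact permutation (scipy 1.17.1). The depth, 6676683 to 12560926 counts per library, leaves members under 50 counts imprecise.

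The 10 members, the gene lists and the tests were chosen with earlier results of these data known. Named were the members, the siRNA targets, list genes called against control, and otherwise the 2 list genes with the smallest p in dKD; genes called only in dKD against Klf5 KD were named after their values were seen. A gene that this rule names is not reported here. Nothing in the labels says that libraries of a group came from separate injection days, so p-values measure only the spread between these pools. Same-numbered dKD and Nr5a2 KD libraries deviated together (r = 0.129, 0.222 and 0.254 over 14830 genes), and the block changed no call between those groups. Such joint deviation was not seen in the other group pairs checked, and Nr5a2 KD with Klf5 KD was not checked. A low r does not show that libraries were unpaired. Myl12b was left out because its symbol has 2 identifiers.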

Additional observations from a re-analysis of the deposited data

How the results depend on the processing

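The call on Prkcz in Nr5a2 KD was kept in 9 of 12 settings and lost with ERCC library sizes, the mitochondrial covariate and the replicate block over all 12 libraries (adjusted p = 0.0641). The number of members called there was 0 with ERCC sizes, 2 with the replicate block (Prkcz and Prkcd), 0 with the block over all 12 libraries and 2 without a fold minimum, and between 0 and 2 when 1 library was left out. In dKD it was 2 with DESeq2, 2 with ERCC sizes (Ezr and Ctnnb1, both higher, where 20.7% of all genes were called higher and Ezr passed the count filter only through dKD), 2 with the mitochondrial covariate, 2 with either replicate block (Prkcz and Prkcd), and between 0 and 2 with 1 library left out. Over all genes, the block called 508 lower and 362 higher of 13262 in Nr5a2 KD, and 527 and 509 of 13724 in dKD. Over all 12 libraries it called 380 and 218 of 14830 in Nr5a2 KD, and 357 and 186 in dKD. In dKD the mitochondrial covariate called 415 lower and 378 higher of 13724, and DESeq2 645 and 707. The block called 0 members between dKD and Klf5 KD, where the adjusted p was 0.0961 for Prkcz and 0.0507 for Prkci. It called 288 lower and 244 higher of 12904 genes there, beside 698 and 694 without it. The labels do not say whether the replicate number pairs the libraries of these groups. Deviations of their same-numbered libraries had r = -0.117, 0.0415 and -0.158, which cannot decide whether they were paired. A control left alone is assumed to vary like the knockdown libraries.

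Among the named values, signs turned only for those not called. With ERCC sizes these were Rhoa in Nr5a2 KD (0.49), Prkcz (0.45), Prkcd (0.028) and Ctnnb1 (0.29) in Klf5 KD, and Cdh1 (0.37), Tead4 (0.0066), Ect2 (0.008), Cdc42 (0.47), Crb3 (0.0806), Stk11 (0.53) and Afdn (0.22) in dKD. With the mitochondrial covariate they were Prkcz (0.31) and Rhoa (-0.41) in Klf5 KD. The Pard6b share in Nr5a2 KD differed from control by -3.81 percentage points and by -8.69 to 3.58 with 1 library left out. Over the named log2 fold changes, those above included and the shares not, 398 of 456 under other settings kept sign and side of the threshold. With 1 library left out, 207 of 232 did. The cause of these changes was not tested. Members with few counts, Ezr above all, allow only large differences to be seen.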
